A study of Mus musculus with 11 samples.

Results

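Gpr83, Izumo1r, Nrp1, Capg and Ecm1 are genes whose RNA is typically abundant in regulatory T cells (Treg cells), and they were followed here in mouse CD4 T cells forced to carry FoxP3 or a mutant of it. These are 5 of 18193 genes measured. The members are all 10 probe sets that the platform annotation gives to exactly 1 of the 5 symbols, of 45101 in the table and 34945 that name 1 gene and are not controls. Nrp1 had 4 of them, Gpr83 and Capg had 2 each, and Izumo1r (older name Folr4) and Ecm1 had 1 each. The cells of every group were taken from spleen and lymph nodes of BALB/cA mice. They were naive CD4(+) CD25(-) CD45RB(high) T cells, stimulated with anti-CD3e at 0.5 µg/ml, IL-2 at 10 ng/ml and T cell-depleted splenocytes irradiated with 20 Gy, and infected 24 h later. The 4 groups received the MIGR1 retroviral vector alone (mock, 3 arrays) or the vector with mouse WT FoxP3 (3 arrays), A384T FoxP3 (3 arrays) or R397W FoxP3 (2 arrays), and on day 7 the CD4(+) cells that were GFP(high) were collected. Forced expression from a retrovirus in activated cells is not the state of a Treg cell formed in the animal, and the labels give neither mouse ages nor whether a group's arrays were of separate cultures, so that p-values measure the spread between arrays, which may be technical.

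FoxP3 is the transcription factor on which Treg identity depends, and it binds DNA through a forkhead domain, in which both substitutions lie. Treg cells are recognised by a set of genes that they hold at a high level, many of which encode surface receptors. Gpr83 is a G protein-coupled receptor found in brain and on Treg cells. Izumo1r, folate receptor 4, is a surface protein held by a lipid anchor, which on the egg (as Juno) binds the sperm protein Izumo1. Nrp1, neuropilin 1, is a co-receptor for class 3 semaphorins and VEGF and binds Sema4a on Treg cells. Capg is a gelsolin-family protein that caps the ends of actin filaments, and Ecm1 is a secreted glycoprotein of the extracellular matrix.

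Each value was a log2 number from RMA (robust multi-array average, a method that turns the signals of several probes into 1 value per probe set), set to the mock median probe set by probe set. A value of 0 therefore means the mock median and not absence, and absolute levels, or levels of one gene against another, cannot be had. Differences between groups are log2 differences ± SE from limma, fitted to all 34945 probe sets with all 11 arrays. P-values were adjusted by Benjamini-Hochberg over these probe sets, and a probe set was called at an adjusted p under 0.05. The leading probe set of a gene is the one with the largest standard deviation over the 11 arrays. The few arrays limit the precision; the median SE was 0.142 between groups of 3 arrays and 0.159 where R397W took part. The single Foxp3 probe set lay between -0.39 and 0.33 on all 11 arrays, so it did not separate the transduced groups from mock, and the sources used here do not place its probes inside or outside the retroviral insert. As levels are lost, the labelled cell type could not be checked by the level of its markers. Of 40 measured markers of other cell types, 1 was called higher and 0 lower in WT over mock, the collagen gene Col1a2 (2.33 ± 0.51). In A384T over mock 0 were called higher and 2 lower, Adgre1 (-1.13 ± 0.19) and Itga2b (-0.57 ± 0.13). Of 8 measured T cell markers, Cd5 was called lower in WT over mock (-0.47 ± 0.1). Cd5 and Cd28 were called lower in A384T over mock (-0.46 ± 0.1 and -0.96 ± 0.16). In RNA from sorted populations, fewer cells of a type and less RNA per cell cannot be told apart.

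The 250 bases before the start of 3 of the genes are shown, because Gpr83 and Izumo1r are neighbours that moved together and Ecm1 is the member with a match to the AP-1 motif. They are from RefSeq (GRCm38.p6), written 5′ to 3′ in the direction of the gene, and all 5 genes had an entry. Capitals mark matches to any of 5 motifs searched on both strands: GTAAACA (forkhead), TGANTCA (AP-1), GGAAA (the core of NFAT sites), TTCNNNGAA (STAT) and TGTGGT (Runx).
Gpr83, chr9:14859960-14860209, plus strand: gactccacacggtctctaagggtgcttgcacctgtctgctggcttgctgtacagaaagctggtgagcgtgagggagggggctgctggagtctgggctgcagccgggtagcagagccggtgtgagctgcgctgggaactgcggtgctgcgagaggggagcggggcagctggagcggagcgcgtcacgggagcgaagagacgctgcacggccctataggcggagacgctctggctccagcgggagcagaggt
Izumo1r, chr9:14903768-14904017, minus strand: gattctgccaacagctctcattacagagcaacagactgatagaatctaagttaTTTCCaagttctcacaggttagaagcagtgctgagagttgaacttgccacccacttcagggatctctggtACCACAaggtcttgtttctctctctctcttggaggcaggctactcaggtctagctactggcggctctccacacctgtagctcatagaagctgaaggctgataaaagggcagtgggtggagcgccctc
Ecm1, chr3:95739570-95739819, minus strand: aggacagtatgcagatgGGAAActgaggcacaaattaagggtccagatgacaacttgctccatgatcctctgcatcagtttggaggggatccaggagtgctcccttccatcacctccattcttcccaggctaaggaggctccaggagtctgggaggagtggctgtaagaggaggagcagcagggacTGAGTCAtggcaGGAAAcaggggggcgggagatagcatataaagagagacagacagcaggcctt
The Gpr83 window held 0 matches to the 5 motifs. The Izumo1r window held 1 NFAT core, 197 to 193 bases before the start, and 1 Runx match (ACCACA, read on the other strand), 127 to 122 bases before it. The Ecm1 window held the AP-1 match TGAGTCA 64 to 58 bases before the start and 2 NFAT cores. No match overlapped another. The forkhead motif was in 0 of the 5 members' windows and in 3.17% of all 32851 promoter windows of this length, the AP-1 motif in 6.75%, the NFAT core in 55.6%, the STAT motif in 7.02% and the Runx motif in 14.0%. Nrp1 had 1 NFAT core and Capg 0 matches. A match describes letters in the window and shows no binding, and the lack of one says nothing about FoxP3.

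With WT FoxP3, 6 of the 10 probe sets, of 4 genes, rose over mock and 0 fell, against 1.81% of all probe sets called higher and 1.4% called lower. The 6 were both of Gpr83, that of Izumo1r, 2 of the 4 of Nrp1 and that of Ecm1. At 9 of the 10 every WT array lay above every mock array, which held for 8.17% of all probe sets. The median difference over the 10 was 1.16, and over all probe sets it was -0.01. All 10 differences were positive, from 0.51 for a Capg probe set to 6.24 for Gpr83. All 10 had an unadjusted p under 0.05 by limma, as did 4295 of all 34945 probe sets. The member genes were chosen with earlier results of these data known. Their counts against all probe sets, here and in the comparisons below, are thus a description and not independent evidence of a direction.

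**Figure D1:**
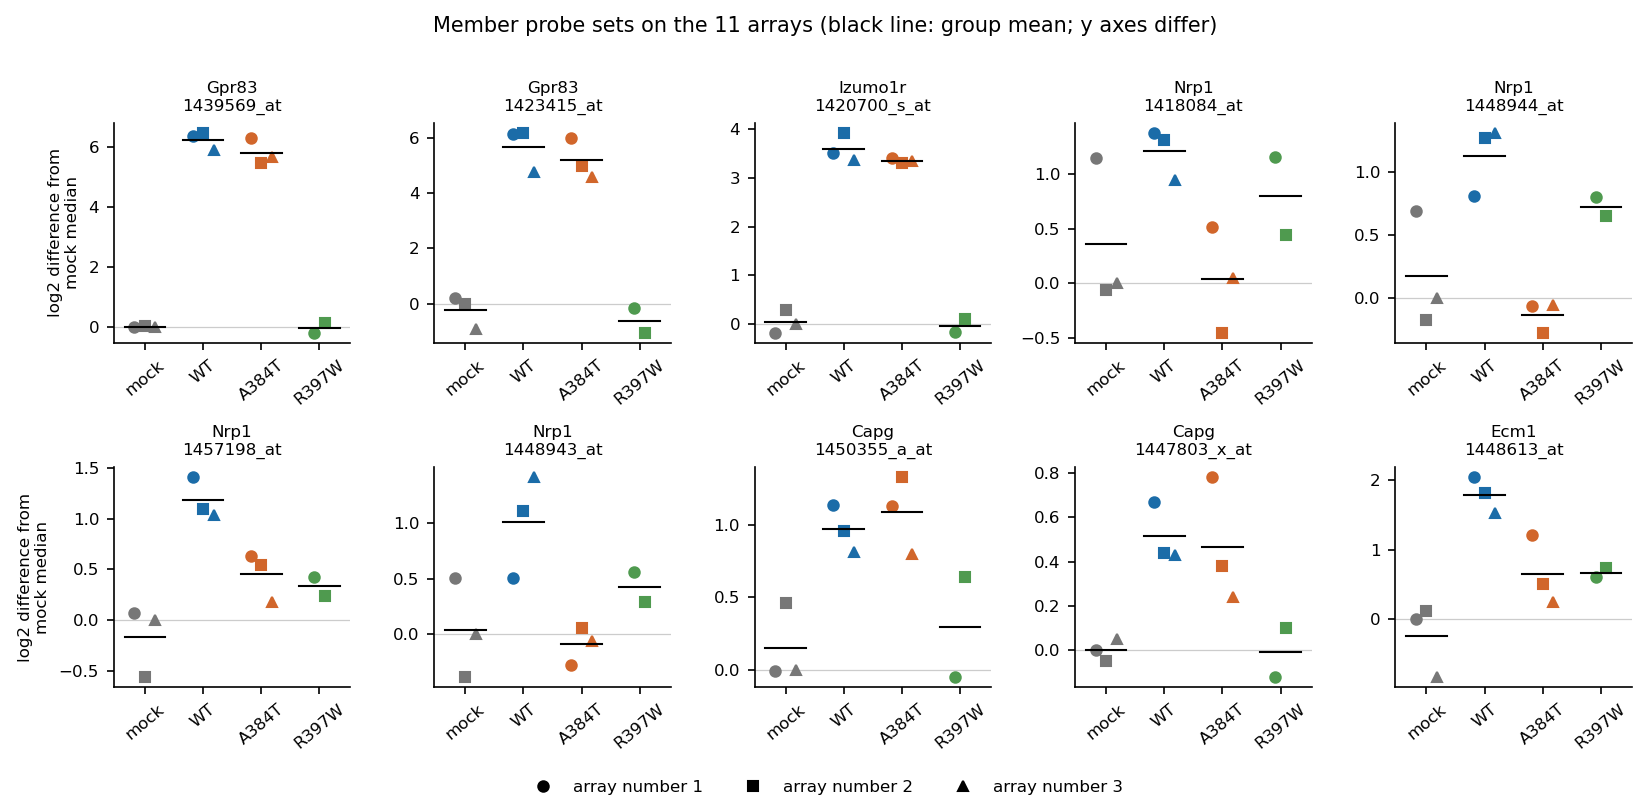
Each panel is 1 probe set; the y axis is the log2 value relative to the mock median (ranges differ between panels), points are single arrays shaped by array number, and black lines are group means. Gpr83 and Izumo1r are high in all 6 WT and A384T arrays and near 0 in mock and R397W, whereas 3 of the 4 Nrp1 panels have the lowest mean in A384T.

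Gpr83 gave the widest separation. At its leading probe set (1439569_at) the mock arrays 1, 2 and 3 were at 0.00, 0.02 and -0.02, the WT arrays at 6.35, 6.46 and 5.90, the A384T arrays at 6.30, 5.45 and 5.65, and the R397W arrays at -0.20 and 0.13. Mock and R397W thus lay together near 0, WT and A384T lay together more than 5 units above them, and no WT or A384T array came near a mock or R397W array. The second Gpr83 probe set (1423415_at) read 0.21, 0.00 and -0.91 in mock, 6.13, 6.17 and 4.76 in WT, 6.01, 5.0 and 4.58 in A384T, and -0.17 and -1.05 in R397W. It spread more within groups, with the arrays numbered 3 the lowest of mock, WT and A384T, yet it separated the same groups. Among all 34945 probe sets, these were the largest and the next largest absolute difference in WT over mock, 6.24 ± 0.22 (adjusted p = 1.38e-06) and 5.92 ± 0.48 (60.6-fold higher, adjusted p = 0.00013). Because Gpr83 was chosen with earlier results of these data known, these ranks are a description only.

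Izumo1r followed the same division of the groups at a smaller size. Its probe set (1420700_s_at) was at -0.18, 0.28 and 0.00 in mock, 3.52, 3.92 and 3.36 in WT, 3.41, 3.30 and 3.35 in A384T, and -0.17 and 0.10 in R397W. The 3 A384T arrays lay within the range from 3.30 to 3.41 (SD 0.06, n = 3), the WT arrays spread more (SD 0.29, n = 3), and neither group overlapped mock or R397W. The difference was 3.57 ± 0.16 in WT over mock (11.8-fold, adjusted p = 7.64e-06) and 3.32 ± 0.16 in A384T over mock (9.99-fold, adjusted p = 1.24e-05). By Affymetrix naming, a probe set ending in _s_at or _x_at can also detect related transcripts, which applies to the only Izumo1r probe set and to 1 of Capg.

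In cells with R397W, Gpr83 and Izumo1r lay far below the WT and A384T groups. In R397W over WT, 3 of the 10 probe sets were called lower, against 1.19% of all probe sets (0.959% higher), and these were the 3 of Gpr83 and Izumo1r, at -6.28 ± 0.24, -6.30 ± 0.54 and -3.64 ± 0.18 (adjusted p = 4.01e-06, 0.000303 and 2.68e-05). The same 3 were called lower in R397W over A384T, against 1.08% of all probe sets (0.75% higher), at -5.84 ± 0.24, -5.80 ± 0.54 and -3.39 ± 0.18 (adjusted p = 8.32e-06, 0.000604 and 5.49e-05). In both comparisons 0 of the 10 were called higher. Against mock, R397W had 0 of the 10 probe sets called by limma, and 0% of all probe sets were called (3 of the 10 and 612 of all had an unadjusted p under 0.05). For the leading Gpr83 probe set the difference of R397W from mock was -0.04 (95% interval -0.58 to 0.50) and for Izumo1r it was -0.07 (-0.48 to 0.33).

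Whether A384T raised these 2 genes as far as WT FoxP3 was read from the direct comparison. A384T differed from WT by -0.44 ± 0.22 at the leading Gpr83 probe set (95% interval -0.92 to 0.05), by -0.49 ± 0.48 at the second (-1.56 to 0.58) and by -0.25 ± 0.16 for Izumo1r (-0.61 to 0.12), each with an adjusted p = 1. The groups overlapped at all 3, with A384T 1 above WT 3 on each. In order of group mean, WT was first, A384T second, and mock and R397W last for both genes. At these 3 probe sets, neither A384T over WT nor R397W over mock was called, also with the array number in the fit. The 95% intervals nevertheless reach down to -0.92, -1.56 and -0.61, so equal levels are not shown. Each A384T array lay below the WT array of the same number at all 3, but the numbers were not taken as pairs. The smallest such gap was 3.35 in A384T 3 against 3.36 in WT 3, for Izumo1r.

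**Figure D2:**
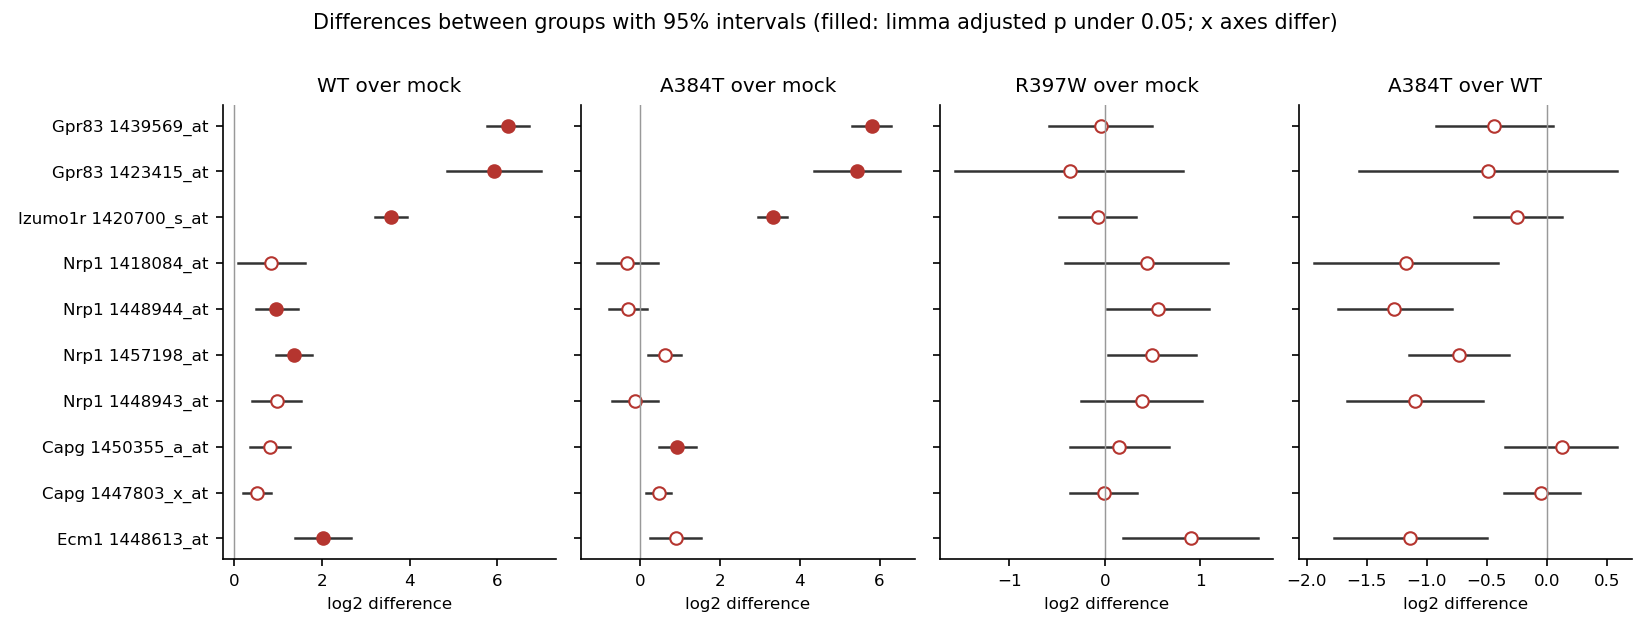
Points are log2 differences between groups from limma and bars their 95% intervals for the 10 probe sets (rows) in 4 comparisons (panels, with different x ranges); filled points had an adjusted p under 0.05. The A384T over WT panel has the 4 Nrp1 probe sets and Ecm1 below 0 with intervals that leave out 0, but no filled point.

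Ecm1 was higher with WT FoxP3 and lay between mock and WT with either mutant. The arrays read 0.00, 0.12 and -0.83 in mock, 2.04, 1.81 and 1.52 in WT, 1.21, 0.50 and 0.25 in A384T, and 0.60 and 0.73 in R397W. All WT arrays were above all others, and all A384T and R397W arrays were above the mock arrays, of which mock 3 was the lowest. Ecm1 rose by 2.02 ± 0.29 in WT over mock (4.07-fold, adjusted p = 0.00349). A384T over mock was at 0.89 ± 0.29 (adjusted p = 0.18) and R397W over mock at 0.90 ± 0.32 (adjusted p = 1). The direct difference of A384T from WT was -1.14 ± 0.29, with a 95% interval of -1.77 to -0.50 and an adjusted p = 0.398. R397W differed from WT by -1.12 ± 0.32 (-1.84 to -0.41, adjusted p = 0.141), and the mutants differed by 0.01 ± 0.32. Neither mutant's difference from WT was called in this fit, although in each the 95% interval of this single probe set left out 0. With the array number as a block in limma, both were called (adjusted p = 0.012 for A384T and 0.0019 for R397W).

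Nrp1 was higher with WT FoxP3 than in mock at 2 of its 4 probe sets, and in all 4 every A384T array lay below every WT array, whereas R397W overlapped WT at 2. At the probe set 1457198_at the arrays read 0.07, -0.56 and 0.00 in mock, 1.41, 1.10 and 1.04 in WT, 0.63, 0.54 and 0.18 in A384T, and 0.43 and 0.24 in R397W. WT was above every other array, and both mutants were above mock. The probe set 1448944_at read 0.69, -0.18 and 0.00 in mock, 0.81, 1.27 and 1.31 in WT, -0.07, -0.28 and -0.06 in A384T, and 0.80 and 0.65 in R397W. Here A384T lay within the range of mock or below it, R397W lay on either side of mock 1, and mock 1 stood apart from the other mock arrays. The other 2 probe sets had this second order too. Their WT arrays ran from 0.94 to 1.37 (1418084_at) and 0.51 to 1.41 (1448943_at), their A384T arrays from -0.45 to 0.51 and -0.27 to 0.06, their R397W arrays from 0.44 to 1.15 and 0.29 to 0.56, and mock 1 was the highest mock array at both, at 1.14 and 0.51.

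Nrp1 rose in WT over mock at 1457198_at by 1.35 ± 0.19 (2.55-fold, adjusted p = 0.00296) and at 1448944_at by 0.96 ± 0.21 (1.95-fold, adjusted p = 0.0382). The call at 1448944_at was lost in 9 of the 11 fits that left out 1 array and held only without mock 1 or WT 1; the highest adjusted p, 0.146, was without WT 2. The leading probe set 1418084_at was at 0.84 ± 0.34 (adjusted p = 0.331) and 1448943_at at 0.97 ± 0.25 (adjusted p = 0.0812). In A384T over mock, Nrp1 was at -0.33, -0.30 and -0.13 at 3 probe sets and at 0.62 ± 0.19 (adjusted p = 0.145) at 1457198_at, so the probe sets did not share a sign. The platform annotation ties 1457198_at to another source transcript than the other 3, and the Nrp1 transcripts that each detects were not settled here.

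A384T was below WT at all 4 Nrp1 probe sets with no overlap of arrays, by 1.17, 1.27, 0.73 and 1.10 (unadjusted p = 0.00652, 0.000131, 0.00264 and 0.00144, adjusted p = 0.601, 0.0806, 0.398 and 0.319). In this comparison 0 of the 10 probe sets were called by limma, 5 had an unadjusted p under 0.05 and 5 did not overlap, against 0.0601% of all probe sets called lower, 0.0544% called higher and 7.72% without overlap. Of all 34945 probe sets, 1492 had an unadjusted p under 0.05 here. The 4 probe sets measure 1 gene and are not independent. Without mock 1 in the fit, 1448944_at was called (-1.27, adjusted p = 0.021), and it was called in 3 of 19 alternatives, whose adjusted p ran from 0.0208 to 1. With the array number as a block in limma, 1418084_at and 1448944_at were called (adjusted p = 0.0247 and 0.0208). In that fit 1457198_at and 1448943_at were not (0.0653 and 0.0943). R397W over WT ranged from -0.85 to -0.41 over the 4 probe sets, and R397W over A384T was positive at 3 of them, up to 0.86 ± 0.24 (adjusted p = 0.132). The arrays hold cells sorted as CD4(+) and GFP(high) from purified naive T cells, a gate meant to leave out other cell types. The sum of the centred values of 9 macrophage and dendritic cell markers ran from -0.25 to 0.78 over the mock arrays, 0.25 to 3.15 over WT, -0.72 to -0.03 over A384T and 0.98 to 1.23 over R397W, and its part in the Nrp1 values was not tested. Of these 9 markers 0 were called in WT over mock and 1, Adgre1, was called lower in A384T over mock (-1.13 ± 0.19). Of all genes, 2.06% were called higher and 1.69% lower in WT over mock, and 1.84% and 1.41% in A384T over mock. The markers did not move alike. In WT over mock Mertk was at 0.84 ± 0.28 and Adgre1 at -0.53 ± 0.19, and the median of the 9 was 0.07. In A384T over mock Mertk was at 0.29 ± 0.28 and the median was 0. Because levels are lost, it cannot be said which of the 9 markers are near background.

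In WT over mock the leading probe set of Capg had the smallest difference among those of the 5 genes, though close to that of Nrp1 (0.84 ± 0.34). This Capg probe set (1450355_a_at) read -0.01, 0.46 and 0.00 in mock, 1.14, 0.96 and 0.81 in WT, 1.13, 1.33 and 0.80 in A384T, and -0.05 and 0.64 in R397W. WT and A384T shared a range above all mock arrays, and R397W 2 lay closer to them than R397W 1 did. The second probe set (1447803_x_at) ran from -0.05 to 0.05 in mock, 0.43 to 0.67 in WT, 0.24 to 0.78 in A384T and -0.12 to 0.10 in R397W, with the same 2 groups above the other 2. WT over mock was at 0.82 ± 0.21 (adjusted p = 0.0723) and 0.51 ± 0.14 (adjusted p = 0.102). In A384T over mock the leading probe set was called, at 0.93 ± 0.21 (1.91-fold, adjusted p = 0.0452), and the second was at 0.47 ± 0.14 (adjusted p = 0.151). That call was lost in 7 of 11 fits without 1 array, those without mock 1 or 3, WT 1, 2 or 3, or A384T 1 or 2 (highest adjusted p = 0.163, without A384T 2). A384T differed from WT by 0.12 ± 0.21 (95% interval -0.35 to 0.58).

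A384T over mock thus had 4 of the 10 probe sets called higher, those of Gpr83 and Izumo1r and 1 of Capg, and 0 lower, against 1.55% of all probe sets called higher and 1.15% lower. At 7 of the 10 the A384T arrays lay apart from mock, all of them above it, which held for 7.99% of all probe sets. The comparisons with mock share the mock arrays, so the likeness of WT and A384T over mock is partly built in. At the leading probe sets, the differences in WT and A384T over mock were 6.24 and 5.80 for Gpr83 and 3.57 and 3.32 for Izumo1r. They were 0.82 and 0.93 for Capg, 2.02 and 0.89 for Ecm1, and 0.84 and -0.33 for Nrp1. The other Nrp1 probe sets were at 1.35 and 0.62 (1457198_at), 0.96 and -0.30 (1448944_at), and 0.97 and -0.13 (1448943_at). Fitted by limma with 1 mean per group, A384T over WT was not called for Ecm1 (adjusted p = 0.398). Nor was it called at any Nrp1 probe set (adjusted p from 0.0806 to 0.601). Some alternative fits called it for Ecm1 and at 2 Nrp1 probe sets.

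The members also differ in where they lie, which the choice of genes did not use. In the RefSeq gene table (GRCm38.p6), Gpr83 and Izumo1r are adjacent protein-coding genes on chromosome 9, with none between them. The 4 protein-coding genes on either side were looked up after the members' values had been seen. Of these 8, 0 were called in WT or A384T over mock by limma. Of all genes, 2.06% were called higher and 1.69% lower in WT over mock, and 1.84% and 1.41% in A384T over mock. The count of 0 is thus near the share over all genes. The differences of the 8 ran from 0.03 to 0.26 in WT over mock and from -0.17 to 0.40 in A384T over mock. The nearest were Mre11a, a DNA repair nuclease (0.24 ± 0.22 in WT over mock), and Panx1, a membrane channel (0.26 ± 0.17). Gpr83 and Izumo1r thus differed from mock by more than the genes on either flank. As the 2 were chosen with earlier results of these data known, this contrast is a description only.

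Ecm1 on chromosome 3 also had a neighbour with a similar pattern. Adamtsl4, a secreted protein of the ADAMTS-like family and the next protein-coding gene to Ecm1, read 0.10, 0.00 and -0.15 in mock, 2.64, 2.35 and 1.82 in WT, 0.99, 0.82 and 0.19 in A384T, and 0.52 and 0.61 in R397W. Like Ecm1, it had WT above all other arrays and both mutants between WT and mock. Adamtsl4 rose by 2.29 ± 0.23 in WT over mock (adjusted p = 0.000524) and was lower in A384T than in WT by 1.60 ± 0.23 (adjusted p = 0.0371), a call that held in 2 of the 11 fits without 1 array, those without WT 3 or A384T 1 (highest adjusted p = 0.182, without WT 2). In R397W it was lower than in WT as well, with a difference of -1.71 ± 0.26 (adjusted p = 0.00763; up to 0.0812 with 1 of the R397W arrays left out). The gene beyond it, Mcl1, which protects cells from apoptosis, rose by 0.97 ± 0.16 in WT over mock (adjusted p = 0.00745), and the other 6 measured neighbours of Ecm1 were not called. Of 7 measured neighbours of Nrp1 and 7 of Capg, 0 were called in WT over mock and 1 each in A384T over mock. These were Pard3 (-1.78 ± 0.40) and Tcf7l1 (2.01 ± 0.46), calls that held in 2 and 3 of the 11 fits without 1 array. Of all genes, 2.06% were called higher and 1.69% lower in WT over mock, and 1.84% and 1.41% in A384T over mock.

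**Figure D3:**
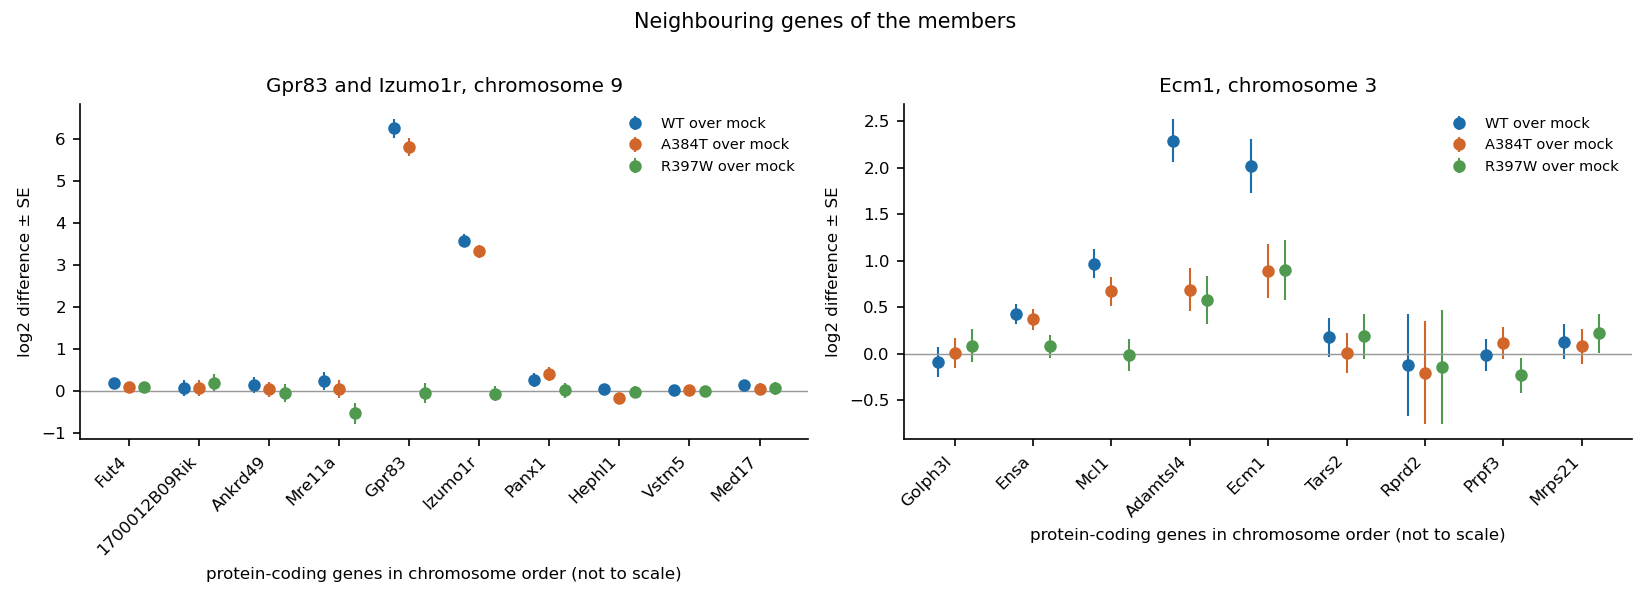
Log2 differences ± SE over mock for protein-coding genes in chromosome order around Gpr83 and Izumo1r (left) and around Ecm1 (right), coloured by the transduced form of FoxP3. On the left only the 2 members leave 0 by more than 0.6, and on the right Adamtsl4 and Ecm1 are the highest in WT over mock, with A384T and R397W below WT.

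Over the 11 arrays, the leading probe sets of Gpr83 and Izumo1r had a Pearson correlation of 0.996, and the second Gpr83 probe set had 0.981 with Izumo1r. The 4 Nrp1 probe sets correlated with each other at 0.606 to 0.938, and 3 of them correlated with Gpr83 at only 0.127 to 0.267, whereas 1457198_at was at 0.75. These correlations mix differences between groups with those between arrays and are given as a description. Other genes were searched for like patterns at probe sets whose standard deviation over the arrays was at or above the median of all. Among these, the patterns most like Gpr83 were those of the granzyme gene Gzmc (r = 0.997), Izumo1r, and Prnp, the prion protein gene (0.995). Prnp was also the nearest to Izumo1r (0.998), with differences over mock of 2.05 ± 0.11 in WT, 1.92 ± 0.11 in A384T and -0.16 ± 0.12 in R397W. For Ecm1 the nearest were Cd24a, a small lipid-anchored surface protein (0.949), Adamtsl4 (0.942) and Abhd4 (0.942). Capg was most like Cisd1 (0.956), the lymphocyte receptor gene Slamf1 (0.951) and Gbp2 (0.95), and the leading probe set of Nrp1 was most like Tcn2 (0.925), Ehd4 (0.899) and Lap3 (0.888).

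The other genes that mark Treg cells gave the setting for the members. Of 38 further measured genes that Treg cells typically hold at a higher level, 16 rose and 0 fell in WT over mock, 15 rose and 0 fell in A384T over mock, and 0 were called in R397W over mock by limma (1 had an unadjusted p under 0.05), where 0 of all probe sets were. Over the leading probe sets of all 18193 genes, 2.06% were called higher in WT over mock and 1.84% in A384T over mock. The list's median differences were 0.90, 0.60 and 0.11, against -0.02, -0.01 and 0.00 over all genes. The largest rises with WT FoxP3 were those of Tnfrsf9, the costimulatory receptor 4-1BB, at 4.13 ± 0.30, the cytokine signalling inhibitor Socs2 at 3.85 ± 0.40, and Nt5e (CD73), which makes adenosine, at 3.48 ± 0.25. With A384T these 3 were at 3.57 ± 0.30, 3.43 ± 0.40 and 0.90 ± 0.25 over mock, and Nt5e was the 1 gene of the list called in A384T over WT (-2.57 ± 0.25, adjusted p = 0.00507), where 0.0989% of all genes were called lower. Gzmb, a granzyme, and Gbp3, a guanylate-binding protein, came next at 3.30 ± 0.66 and 3.0 ± 0.23 in WT over mock, and the Gzmb call was lost without mock 3, WT 1 or WT 2 (highest adjusted p = 0.1). The genes were chosen with results of these data known, so these counts are not independent evidence of a direction.

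**Figure D4:**
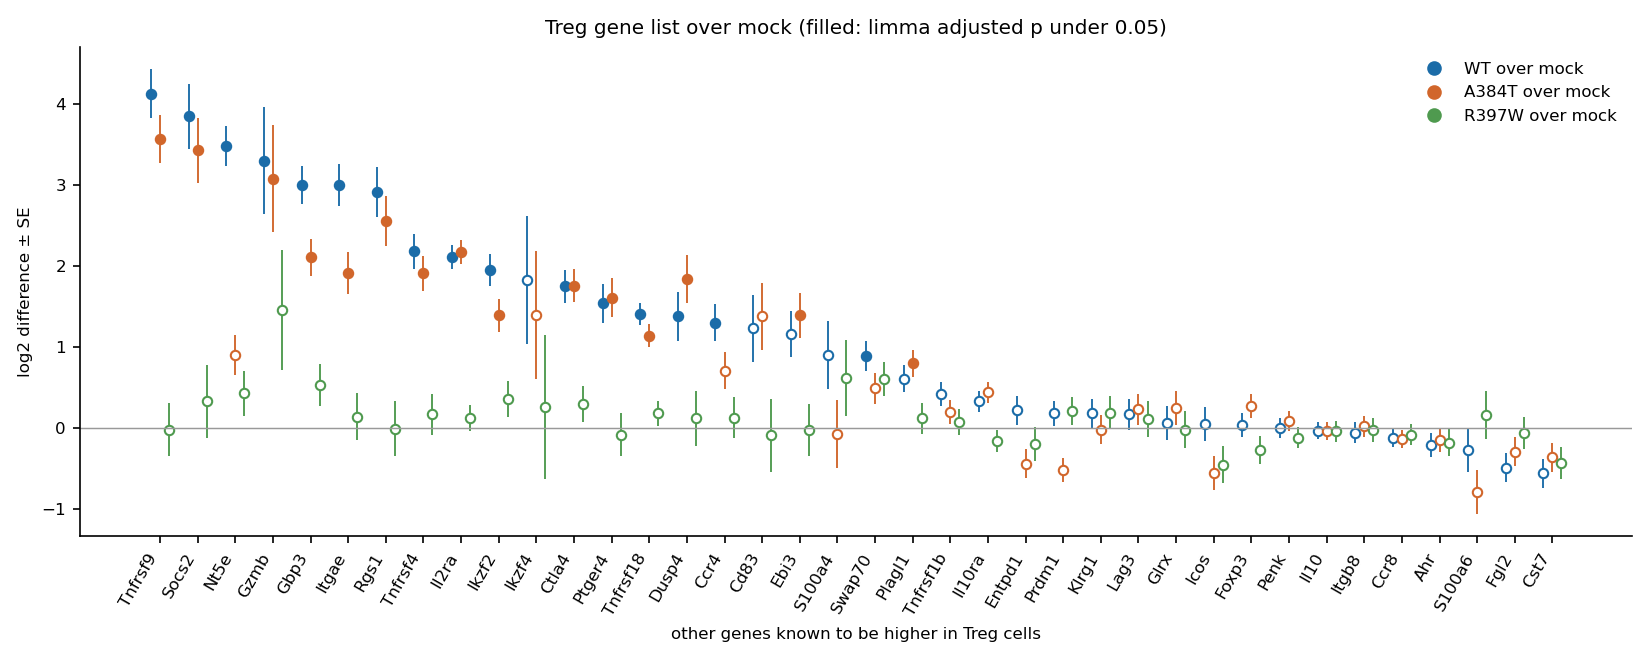
Log2 differences ± SE over mock for the 38 other genes typically higher in Treg cells, ordered by the WT difference; filled points had an adjusted p under 0.05. WT and A384T points fill on the left, R397W points are all open, and Nt5e has a WT point at 3.48 and an A384T point at 0.90.

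Of 16 genes that Treg cells typically hold at a lower level, 5 fell and 1 rose in WT over mock, with a median of -0.36, against 1.69% of all genes called lower. Those that fell included the phosphodiesterase gene Pde3b (-1.63 ± 0.17) and the phosphatase gene Ptpn22 (-1.35 ± 0.13), and the 1 that rose was Id3, an inhibitor of E proteins (2.24 ± 0.22); without mock 2, the number that fell was 2. In A384T over mock 2 fell and 1 rose, against 1.41% of all genes called lower. In R397W over mock 0 were called by limma (2 had an unadjusted p under 0.05), as were 0 of all probe sets.

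Partners and relatives of each member were counted in the same way. Of 22 semaphorin, plexin and VEGF genes linked to Nrp1, 3 rose and 3 fell in WT over mock (median -0.01), and without WT 2 only 1 was called, Vegfb. Over all genes, 2.06% were called higher and 1.69% lower. Sema7a, a lipid-anchored semaphorin, rose by 2.48 ± 0.44 and the plexin gene Plxnd1 by 0.58 ± 0.11. Sema4a, the semaphorin that Nrp1 binds on Treg cells, fell by 1.23 (SE 0.26, adjusted p = 0.03), Vegfb by 1.57 (SE 0.17) and Nrp2, the other neuropilin, by 0.91 (SE 0.17). Nrp1 and Nrp2 thus differed in direction with WT FoxP3. The Vegfb call held in all 11 fits without 1 array, whereas that of Nrp2 was lost without mock 2, mock 3 or WT 2, that of Sema7a without mock 2, WT 1 or WT 2, that of Sema4a without mock 1, 2 or 3 or WT 2 or 3, and that of Plxnd1 without mock 1, 2 or 3 or WT 1 or 2. In A384T over mock 2 of these genes rose and 2 fell, against 1.84% of all genes called higher and 1.41% lower. Nrp2 was at -1.12 ± 0.17 (adjusted p = 0.00508) and Sema4a at -0.71 ± 0.26 (adjusted p = 0.256).

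The families of the other members held few called genes. Over all genes, 2.06% were called higher and 1.69% lower in WT over mock, and 1.84% and 1.41% in A384T over mock. Of 14 gelsolin and actin genes related to Capg and 7 folate receptor and transporter genes related to Izumo1r, 0 were called by limma in WT or A384T over mock (of the 14, 2 had an unadjusted p under 0.05 in each, and of the 7, 1 and 0). Gsn, gelsolin, was at 0.56 ± 0.25 with WT (adjusted p = 0.392) and 1.05 ± 0.25 with A384T (adjusted p = 0.0558), and the folate carriers Slc46a1 and Slc19a1 were at 0.25 ± 0.15 and -0.25 ± 0.20 with WT. Of 12 matrix and egress genes set beside Ecm1, 1 fell in WT over mock, Fbln1 (fibulin 1, -0.92 ± 0.17, not called without mock 2 or WT 2), and 1 in A384T over mock, Klf2, a factor that sustains egress from lymphoid organs (-0.96 ± 0.20, called in 3 of 11 fits without 1 array). Of 6 measured neuropeptide genes set beside Gpr83, the receptor gene Gpr171 fell, by 1.66 (SE 0.18, adjusted p = 0.000756) with WT and by 1.05 (SE 0.18, adjusted p = 0.012) with A384T (not called without mock 1, mock 3 or A384T 1), and R397W was at 0.02. Gpr83 and Gpr171 thus lay on opposite sides of mock in both groups.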

How the data were processed

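RNA of 11 samples, 1 Affymetrix array each, was measured in 4 groups read from the sample titles. The values the authors deposited are log2 numbers from RMA, which the labels name without a version, per the submitters' processing notes. At all 45101 probe sets the median of the 3 mock arrays is 0; no source used here states this centring or the log base, and base 2 was taken from RMA. A filter on dim probe sets was not possible. Probe sets with several symbols (932), none (9211) or of controls were left out, leaving 34945.

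Each probe set was fitted in limma 3.58.1 (R 4.3.3; eBayes, 1 mean per group, 11 arrays, 7 residual degrees of freedom), with 6 contrasts and Benjamini-Hochberg adjustment; the script was tested on simulated data. Figures used Python 3.11.15 and matplotlib 3.10.9. The text names every member probe set, the 3 most correlated genes per member and up to 5 called genes per related list in WT over mock (or the 2 of largest difference). Neighbouring genes, the named cell type markers and Klf2 were chosen after their values were seen. Members and lists were chosen with earlier results of these data known. Alternatives were the array number as a block, a robust prior, 2 groups in the fit, other scalings, other sets of probe sets, 1 value per gene, and arrays left out; running them on genes that are no members was chosen after seeing the data.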

Additional observations from a re-analysis of the deposited data

How the results depend on the processing

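The calls of Gpr83 and Izumo1r over mock and of R397W against WT and A384T held in every alternative run. Of 324 alternatives of the 16 called member differences, 301 kept the call, 23 lost it and 0 turned sign. The 23 were those of Nrp1 (1448944_at, WT over mock), Capg (1450355_a_at, A384T over mock) and Ecm1 (WT over mock, adjusted p = 0.091 after quantile normalization of the centred values, against 3.12e-05 to 0.0198 otherwise). The 44 uncalled differences turned sign in 22 of 876 alternatives and were called in 26.

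Arrays of the same number deviated from their group means together (median correlation 0.504 over 15 pairs, lowest 0.0858, 14 over 0.1, and median -0.349 between other numbers). On average, 10 of 11 arrays correlated best with arrays of their own number. Deviations within a group sum to 0, so a positive correlation at the same number pushes those at other numbers down. The negative values are thus partly built in, as for mock 1 with R397W 1 (0.699) and with R397W 2 (-0.699). Since 1 pair missed 0.1 and the labels tie no number to a culture or day, the numbers were not taken as pairs. With this replicate block, called member probe sets became 10 in WT over mock, 3 lower in A384T over WT (2 of Nrp1, adjusted p = 0.0247 and 0.0208, and Ecm1, 0.012) and 6 in R397W over WT, and Ecm1 in R397W over A384T turned to -0.20. Ecm1 was then also called in A384T over mock (adjusted p = 0.00724) and R397W over WT (0.0019). In A384T over mock the block gave 5 lower and 2 higher of the genes lower in Treg cells (2 and 1 without it), 4 lower and 3 higher of the Nrp1 partners (2 and 2), among them Sema4a lower (0.00237), Gsn higher (0.0101) and Svil lower (0.0114) of the gelsolin genes, Slc19a1 lower (0.0238) of the folate genes, and 2 lower and 1 higher of the Ecm1 list (1 and 0), of which 3 were lower in WT over mock (1 without it). Of the genes higher in Treg cells it called 22 higher and 2 lower in WT over mock and 19 and 3 in A384T over mock. Calls over all probe sets in WT over mock, A384T over mock, A384T over WT, R397W over WT and R397W over A384T were 1121, 942, 40, 752 and 641; with the block 3026, 2923, 206, 2238 and 2275; after quantile normalization 450, 423, 7, 258 and 268; and without the 4 arrays numbered 1 they were 495, 354, 2, 186 and 117. Fits of 2 groups gave 531, 12, 326 and 161 in the last 4. R397W over mock gave 0 calls by limma in each. In A384T over WT 47.5% of calls were higher, and 71.4% after quantile normalization.

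With the mean of a gene's probe sets, all 5 member genes were called in WT over mock (3 at the leading probe set), Nrp1 at 1.03 (adjusted p = 0.0108) and Capg at 0.67 (0.0274); 1 gelsolin gene was called lower in A384T over mock. Without the 30% of probe sets of lowest standard deviation, 1 member probe set was called in A384T over WT. Without the arrays numbered 1, Nrp1 1448943_at in A384T over mock turned to 0.19, and in R397W over mock Gpr83 1439569_at turned to 0.13 and Capg 1447803_x_at to 0.10. After quantile normalization Nrp1 turned to 0.25 at 1418084_at and 1448944_at in R397W over WT and to 0.03 at 1457198_at in R397W over A384T. The causes were not tested.

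Leaving out 1 array gave 648 (without WT 1) to 1137 calls in WT over mock, 587 (without A384T 1) to 849 in A384T over mock, 17 (without WT 1 or 2) to 32 in A384T over WT, 235 (without R397W 1) to 777 in R397W over WT and 204 (without R397W 1) to 612 in R397W over A384T, and 0 to 1 member calls in A384T over WT. A lone R397W array was then assumed to vary like the other groups. Signs turned only for uncalled differences. In A384T over mock, Nrp1 ran from -0.56 to 0.06 at 1418084_at and from -0.34 to 0.10 at 1448943_at. In R397W over mock, Gpr83 ran from -0.20 to 0.13 at 1439569_at and from -0.81 to 0.07 at 1423415_at, Izumo1r from -0.21 to 0.06, and Capg from -0.20 to 0.49 at 1450355_a_at and from -0.12 to 0.10 at 1447803_x_at. Capg ran from -0.01 to 0.26 and from -0.21 to 0.06 in A384T over WT, and Ecm1 from -0.19 to 0.29 in R397W over A384T. Counts of probe sets were not computed at gene level, where 659 (largest standard deviation) and 877 (mean) of 18193 genes were called in WT over mock.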
